A study of Mus musculus with 6 samples.

Results

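Cytochrome P450 genes of families 1, 2 and 3 were described in liver of 6 male mice, 3 wild type (WT) and 3 with a liver-specific knockout of ChREBP (ChLO). The members were the genes whose single annotated symbol is Cyp1, Cyp2 or Cyp3 followed by a letter and whose probe set had a mean log2 signal of at least 5.5 over the 6 arrays. A probe set is the group of short probes that reads a transcript, and where a gene had several, the probe set with the highest mean was kept. Of 43 such genes on the array, 35 passed, in 13 subfamilies, among 12596 genes tested in all. Just inside the limit were Cyp2d34 at a mean of 5.63 and Cyp2s1 at 5.84, and just outside it Cyp2j13 at 5.47, Cyp3a44 at 5.38 and Cyp1b1 at 5.33. The other 5 genes below it were Cyp2b13, Cyp2j11, Cyp2b19, Cyp2c65 and Cyp3a16. The means of Cyp2d34 were 6.11 in WT and 5.15 in ChLO, so its ChLO mean lay below the limit. The WT means of all 35 members lay above it.

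ChLO mice came from a cross of mice with floxed Chrebp alleles (the gene now named Mlxipl) to albumin-Cre mice, so that Cre acts in hepatocytes. All 6 mice were given a 60% sucrose diet for 1 week from an age of 12 weeks. The labels call the WT mice wild type and do not give them a floxed allele or Cre. Each array held liver RNA of 1 mouse, and the values are deposited log2 signals. Mlxipl read 12.56 to 12.61 in WT and 10.34, 11.22 and 11.48 in ChLO 1, 2 and 3. Other liver cells keep the gene, but the source of the remaining signal was not tested. Whether its probe set lies in the deleted exons is unknown here. Array medians ran from 6.37 to 6.60, and correlations between arrays from 0.894 to 0.954.

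Cytochrome P450 enzymes are heme proteins of the endoplasmic reticulum that insert an oxygen atom into drugs, toxins, steroids and fatty acids. They take electrons from a reductase and from cytochrome b5. Families 1, 2 and 3 hold most of the drug-metabolizing enzymes, and hepatocytes around the central vein carry most of them. Their transcription follows sensors of foreign compounds: AHR drives family 1, CAR drives the 2B and 2C subfamilies and PXR drives 3A. In mice several also depend on sex through growth hormone.

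For the 2 members with the smallest p in each direction, and for Cyp2b10, which had the largest positive difference, the 250 bases before the gene start are given below. They show what lies next to the start of these 5 genes. They come from RefSeq (GRCm38.p6), are written 5′ to 3′ on the gene's strand, and capitals mark matches on either strand to CACGTG (the E-box, a form of which ChREBP binds), AGGTCA (a nuclear receptor half-site), GCGTG (the core of the AHR site) or TATAAA (the TATA box).

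Cyp2c29 (chr19:39286835-39287084, plus strand): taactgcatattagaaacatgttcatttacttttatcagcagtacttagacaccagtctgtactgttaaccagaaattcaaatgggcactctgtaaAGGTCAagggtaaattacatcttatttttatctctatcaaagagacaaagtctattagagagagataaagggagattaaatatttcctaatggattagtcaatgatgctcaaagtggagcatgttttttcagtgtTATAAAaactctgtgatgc

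Cyp2c68 (chr19:39741102-39741351, minus strand): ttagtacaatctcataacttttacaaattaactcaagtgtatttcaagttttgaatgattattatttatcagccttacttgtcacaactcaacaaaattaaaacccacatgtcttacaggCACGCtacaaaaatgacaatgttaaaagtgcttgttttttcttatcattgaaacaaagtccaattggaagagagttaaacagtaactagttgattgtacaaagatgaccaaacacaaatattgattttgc

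Cyp1a2 (chr9:57683656-57683905, minus strand): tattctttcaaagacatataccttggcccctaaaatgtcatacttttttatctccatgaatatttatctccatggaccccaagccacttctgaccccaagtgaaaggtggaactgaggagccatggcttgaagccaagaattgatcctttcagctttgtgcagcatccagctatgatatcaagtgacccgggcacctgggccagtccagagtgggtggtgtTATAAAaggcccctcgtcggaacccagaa

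Cyp3a13 (chr5:137921620-137921869, minus strand): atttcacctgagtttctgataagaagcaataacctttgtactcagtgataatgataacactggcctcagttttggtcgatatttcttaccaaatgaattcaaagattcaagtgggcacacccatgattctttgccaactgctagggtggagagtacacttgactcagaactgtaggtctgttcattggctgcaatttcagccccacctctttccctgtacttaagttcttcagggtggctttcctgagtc

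Cyp2b10 (chr7:25897408-25897657, plus strand): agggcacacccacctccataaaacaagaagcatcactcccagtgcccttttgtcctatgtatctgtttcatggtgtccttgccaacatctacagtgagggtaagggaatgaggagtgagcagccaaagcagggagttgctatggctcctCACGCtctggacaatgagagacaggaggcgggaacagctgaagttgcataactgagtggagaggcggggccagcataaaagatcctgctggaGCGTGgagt

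In Cyp2c29 a TATAAA began 19 bases before the start and an AGGTCA 154 bases before it. In Cyp1a2 a TATAAA began 29 bases before the start. Cyp2c68 held a GCGTG match at 130 bases and Cyp2b10 held matches at 9 and 101 bases, while the window of Cyp3a13 held none of the 4 motifs. Of the 35 members, 27 matched a promoter in the table by symbol. CACGTG was found in 1 of these 27 genes, Cyp2j6, and in 6.02% of all 32851 promoter windows of this length. AGGTCA was found in 8 of the 27 and in 14.0% of all windows, GCGTG in 4 and in 28.2%, and TATAAA in 14 and in 12.4%. A gene was counted if any window under its symbol matched, so counts of genes and shares of windows are unlike measures. The motifs were searched on both strands, none of them is contained in another, and a match says nothing about binding.

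Most P450 members read lower in ChLO than in WT livers, and none passed the test across all genes. The signal was lower for 26 of 35 members and higher for 9, with a median difference of -0.35 log2 units, where 43.5% of all genes tested were lower and their median difference was 0.06. The largest negative differences were those of Cyp2c29 at -1.72, Cyp2j9 at -1.33, and Cyp2d13 and Cyp2d40, both at -0.99. The largest positive ones were those of Cyp2b10 at 1.91, Cyp2b9 at 1.62 and Cyp2g1 at 1.31. Differences below -1 were found for 2 members (background 2.72%) and above 1 for 3 members (background 4.07%). In liver tissue, fewer cells of a type and less RNA per cell cannot be told apart.

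Limma called 0 of the 35 members at an adjusted p under 0.05, with 0% called among all genes and a smallest adjusted p of 0.0528 there. At an unadjusted limma p under 0.05 there were 8 members, 6 lower and 2 higher, against a background of 8.96% of all genes (3.5% lower and 5.46% higher). The 8 were Cyp2c29, Cyp2c68, Cyp1a2, Cyp2j9, Cyp2r1, Cyp2u1, Cyp3a13 and Cyp2f2. Their number was 15 without ChLO 3 and 4 without WT 1, and with ChLO 3 left out 20.4% of all genes had such a p. That share was not worked out without WT 1. Every ChLO array lay below every WT array for 8 members (background 6.19%) and above for 1 member, Cyp1a2 (background 9.04%). The 8 below were Cyp2c29, Cyp2c68, Cyp2j9, Cyp2r1, Cyp2u1, Cyp2f2, Cyp2d13 and Cyp2d34. Of these, Cyp2d34 passed the signal limit of 5.5 through its WT mean of 6.11, with a ChLO mean of 5.15. Nothing labels the 3 mice of a group as littermates or as separate experiments beyond biological replicates, and the p-values measure the spread between these mice.

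**Figure D1:**
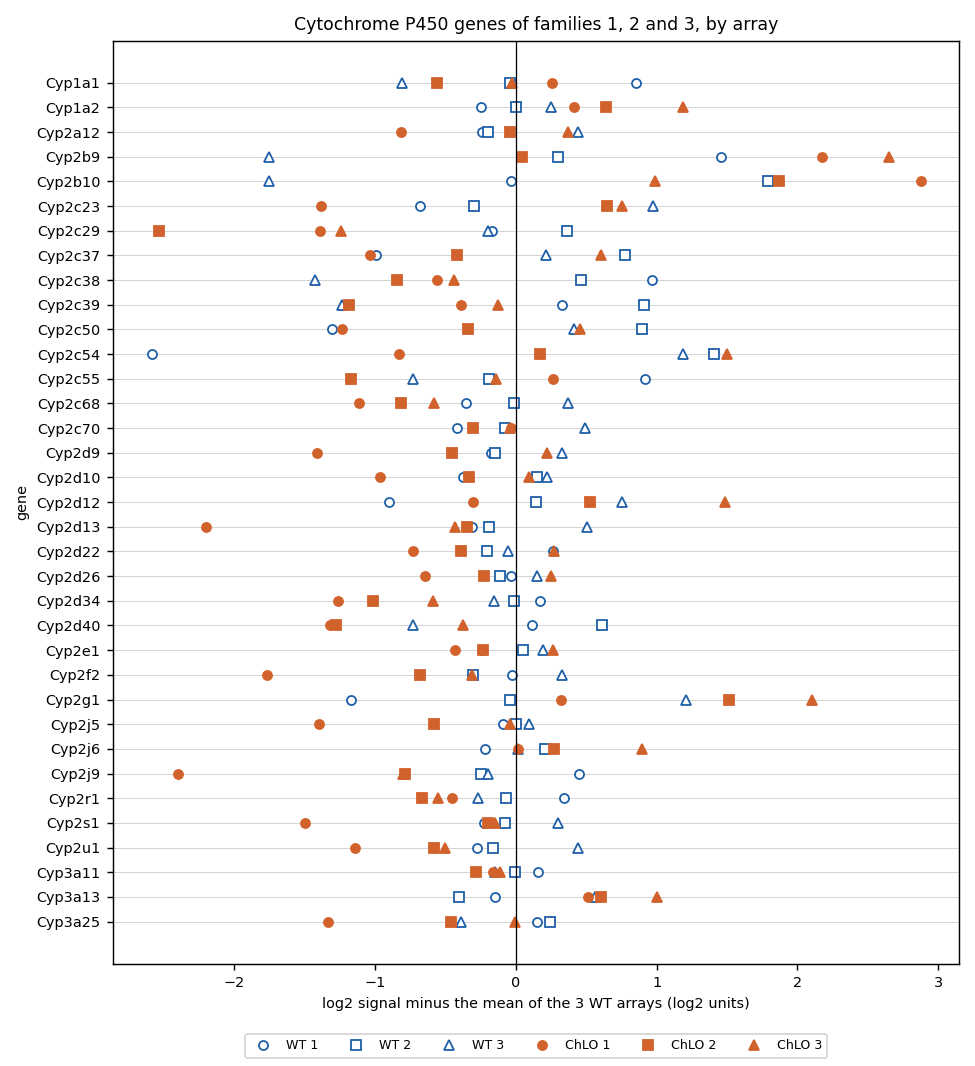
Log2 signal minus the mean of the 3 WT arrays (x axis, log2 units) for each of the 35 P450 genes (y axis, by subfamily); open blue symbols are WT mice, filled orange symbols ChLO mice, and circle, square and triangle are mice 1, 2 and 3. ChLO 1 is the lowest array for 18 genes (22.3% of all genes tested), whereas ChLO 3 is the lowest for 0 (16.6% of all genes) and the highest for 10 (20.4% of all genes).

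The P450 signal was uneven among the ChLO mice. Taken as deviations from each gene's WT mean, the 35 members had medians of -0.81, -0.35 and -0.01 in ChLO 1, 2 and 3 and of -0.17, -0.02 and 0.19 in WT 1, 2 and 3. By this median ChLO 3 lay within the WT range, and ChLO 1 and ChLO 2 lay below it. ChLO 1 was the lowest of the 6 arrays for 18 of 35 members, where it was the lowest for 22.3% of all genes. ChLO 1 lay below every WT array for 21 members, ChLO 2 for 16 and ChLO 3 for 8, where the shares over all genes were 29.2%, 25.0% and 24.0%. ChLO 3 lay above every WT array for 10 members, ChLO 2 for 5 and ChLO 1 for 3, where the shares over all genes were 31.0%, 31.5% and 38.8%. The count for ChLO 3 is thus near the share over all genes. The number of members with a negative difference was 21 without ChLO 1, 28 without ChLO 3 and 20 (with 15 higher) with scaling to the spike-in controls, an alternative chosen after seeing the data. That scaling adds a constant to each array and so moved every difference by 0.25, which put the median of all genes at 0.31 and that of the members at -0.10. With the deposited values 27 of 35 members lay below the median of all genes, a count that such a constant cannot alter. Within groups the median SD of the members was 0.39 in WT and 0.60 in ChLO, against 0.27 and 0.35 over all genes.

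**Figure D2:**
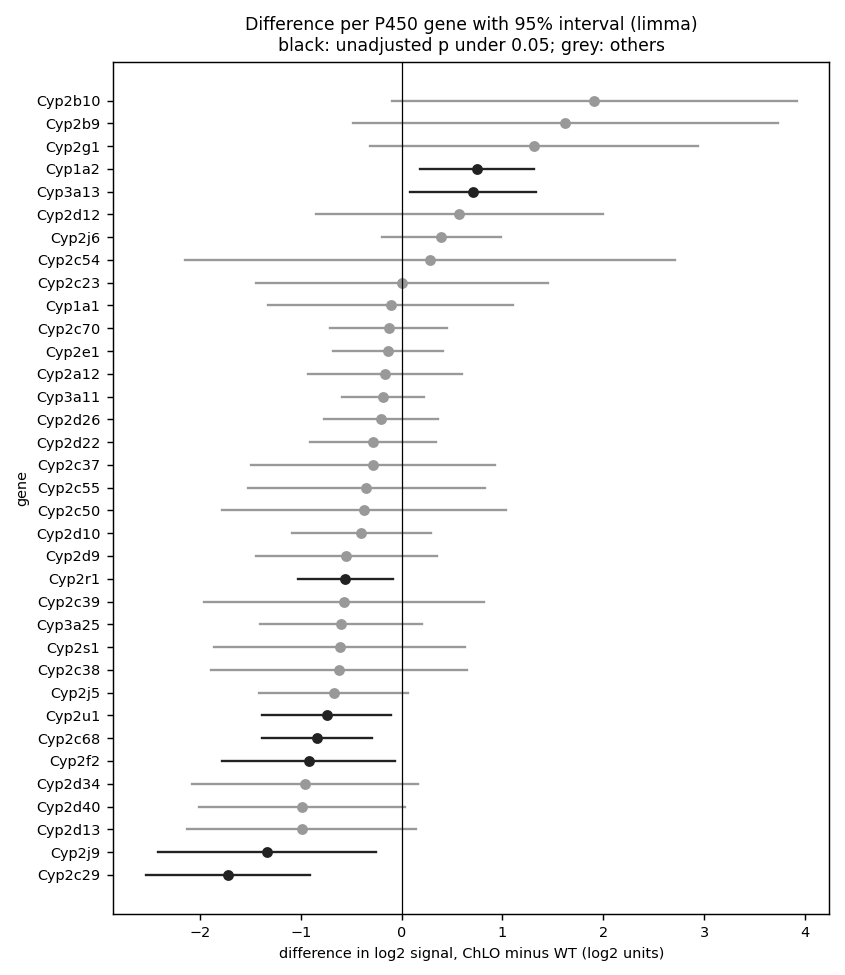
Difference in log2 signal, ChLO minus WT (x axis), for the 35 P450 genes ordered by size (y axis); points are limma estimates, lines their 95% intervals, black where the unadjusted p is under 0.05. The estimates run from -1.72 for Cyp2c29 to 1.91 for Cyp2b10, and the interval of Cyp2c29, from -2.54 to -0.91, lies farthest below 0.

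In the Cyp2c subfamily, the fatty acid epoxygenases and drug hydroxylases of liver, 8 of 10 members were lower, with a subfamily median of -0.36. Cyp2c29, an arachidonic acid epoxygenase that CAR activates, read 14.63, 15.16 and 14.60 in WT 1, 2 and 3 and 13.41, 12.26 and 13.56 in ChLO 1, 2 and 3. All 3 ChLO mice were below the lowest WT mouse, ChLO 2 the most. ChLO minus WT came to -1.72 (SE 0.35, limma adjusted p = 0.237), which is 3.30-fold lower. Without ChLO 3 it was -1.97 and passed (adjusted p = 0.0344, where 2.4% of all genes were called), and it passed with array weights at -2.33 (adjusted p = 0.0163, where 4.51% were called). Limma reported incomplete convergence of the array weights. Leaving out any of the other 5 arrays gave an adjusted p between 0.265 (ChLO 1) and 0.723 (WT 2), and the difference ranged from -1.97 to -1.32 over the 6 arrays.

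Cyp2c68 read 13.78, 14.12 and 14.50 in WT and 13.02, 13.32 and 13.55 in ChLO. The groups did not overlap, and their SDs were 0.36 in WT and 0.27 in ChLO. The difference was -0.84 (SE 0.24, limma adjusted p = 0.441). It passed with array weights at -0.86 (limma adjusted p = 0.0438, where 4.51% of all genes were called), but limma reported incomplete convergence of those weights. Without ChLO 3 it was -0.96 (limma adjusted p = 0.0803), and it passed in no other alternative. The gene stands in a cluster with close relatives such as Cyp2c67, Cyp2c40 and Cyp2c69, which are near-identical copies, so the probe set may read more than this gene.

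Cyp2c54, Cyp2c50 and Cyp2c37 are neighbours among the tested genes of the cluster and were spread widely among WT mice. Cyp2c54 read 8.30, 12.29 and 12.07 in WT and 10.05, 11.05 and 12.38 in ChLO. WT 1 was the lowest array and stood 3.99 log2 units below the highest WT mouse, so the difference of 0.28 (SE 1.05) became -1.01 without WT 1. Cyp2c50 was at 11.95 in WT 1 against 14.16 and 13.67 in WT 2 and 3, and at 12.02, 12.92 and 13.71 in ChLO. Cyp2c37 was at 11.17 in WT 1 against 12.94 and 12.38, and at 11.12, 11.75 and 12.76 in ChLO. In all 3 genes WT 1 and ChLO 1 were the 2 lowest of the 6 arrays.

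The neighbours Cyp2c38 and Cyp2c39 had another order of mice. Cyp2c38 read 10.83, 10.32 and 8.44 in WT and 9.30, 9.02 and 9.42 in ChLO, and Cyp2c39 read 7.21, 7.79 and 5.65 in WT and 6.49, 5.70 and 6.76 in ChLO. For both, WT 3 was the lowest mouse and the ChLO mice lay inside the WT range. Cyp2c55 read 8.94, 7.83 and 7.29 in WT and 8.28, 6.85 and 7.88 in ChLO, with the groups overlapping. Cyp2c70, which hydroxylates bile acids to the muricholic acids of mice, read 14.00, 14.35 and 14.91 in WT and 14.39, 14.12 and 14.38 in ChLO. The ChLO mice lay within the WT range, and the 95% interval of the difference ran from -0.71 to 0.45. Cyp2c23, a renal and hepatic epoxygenase, had a difference of 0.01 (SE 0.63) with WT mice between 12.18 and 13.84 and ChLO mice between 11.48 and 13.61.

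**Figure D3:**
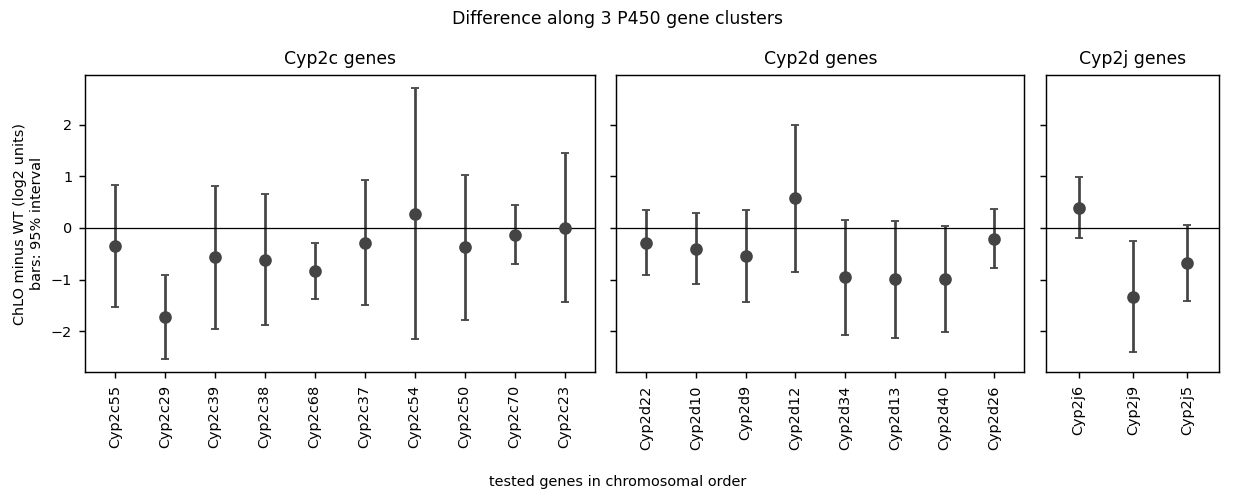
Difference in log2 signal, ChLO minus WT (y axis, points with 95% intervals), for the tested genes of 3 P450 clusters in chromosomal order (x axis). Within the Cyp2c cluster, Cyp2c29 at -1.72 stands next to Cyp2c39 at -0.57 and Cyp2c55 at -0.35.

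In the Cyp2d subfamily, which in mice is a cluster of many close copies and pseudogenes, 7 of 8 members were lower, with a median of -0.47, and 0 had an unadjusted p under 0.05. Near-identical Cyp2d copies may share probe signal, so the 8 readings may not be of separate genes. ChLO 1 was below all WT arrays for 7 of the 8. Cyp2d13, which RefSeq annotates as a transcribed pseudogene, read 10.73, 10.86 and 11.55 in WT and 8.85, 10.70 and 10.62 in ChLO. ChLO 1 stood apart, and ChLO 2 lay just under the lowest WT mouse; the difference was -0.99 (SE 0.49), or -0.39 without ChLO 1. Cyp2d34 read 6.29, 6.10 and 5.95 in WT and 4.85, 5.10 and 5.52 in ChLO, a dim signal with no overlap, and the difference was -0.96 (SE 0.48, limma adjusted p = 0.594). Cyp2d40 read 7.76, 8.26 and 6.91 in WT and 6.33, 6.37 and 7.27 in ChLO, with ChLO 3 above WT 3.

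The bright Cyp2d members differed less. Cyp2d9, a male-biased steroid hydroxylase, read 14.59, 14.62 and 15.09 in WT and 13.35, 14.31 and 14.99 in ChLO. ChLO 1 and ChLO 2 were below every WT mouse and ChLO 3 was between WT 2 and WT 3, and the difference of -0.55 (SE 0.39) did not pass (adjusted p = 0.683). Cyp2d10 read 14.36, 14.89 and 14.96 in WT and 13.77, 14.41 and 14.83 in ChLO. Cyp2d26 read 14.43, 14.36 and 14.62 in WT and 13.82, 14.24 and 14.72 in ChLO. In both, ChLO 1 was the lowest mouse and ChLO 3 lay within or above the WT values. Cyp2d22 differed by -0.28 (SE 0.27), and its second probe set by -0.42. Cyp2d12 was the exception in direction: its WT mice read 5.15, 6.19 and 6.80 and its ChLO mice 5.74, 6.58 and 7.53, with overlapping groups near the limit of signal.

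Of the Cyp2j epoxygenases, which oxidize arachidonic acid, 2 of 3 were lower. Cyp2j9 read 8.92, 8.23 and 8.28 in WT and 6.07, 7.68 and 7.67 in ChLO. All 3 ChLO mice were below the lowest WT mouse, ChLO 1 by the most, and the difference was -1.33 (SE 0.47, limma adjusted p = 0.498). Without ChLO 1 it was -0.80. Cyp2j5, an epoxygenase of liver and kidney, read 13.97, 14.06 and 14.16 in WT and 12.66, 13.48 and 14.02 in ChLO. The WT mice were tightly grouped, with an SD of 0.10, while the ChLO mice spread with an SD of 0.68. The difference was -0.67 (SE 0.32), or -0.31 without ChLO 1, and a second probe set of the gene differed by -1.29. Cyp2j6 read 9.76, 10.19 and 9.99 in WT and 10.25 and 10.88 in ChLO 2 and 3, with ChLO 1 just above WT 3. The difference was 0.39 (SE 0.25), but its second probe set differed by -0.15, so its direction depends on the probe set.

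Members of subfamilies with other substrates also read lower. Cyp2f2, which activates naphthalene and in liver marks hepatocytes around the portal vein, read 15.05, 14.77 and 15.41 in WT and 13.31, 14.39 and 14.76 in ChLO. ChLO 1 was clearly lowest and ChLO 3 lay only just under WT 2, and the difference was -0.92 (SE 0.37, limma adjusted p = 0.535), or -0.50 without ChLO 1. Cyp2u1, a fatty acid hydroxylase, read 8.92, 9.03 and 9.63 in WT and 8.05, 8.61 and 8.69 in ChLO. All ChLO mice were below all WT mice, the difference was -0.74 (SE 0.28, adjusted p = 0.508), and its second probe set differed by -0.66. Cyp2r1, which makes the main circulating form of vitamin D, read 10.56, 10.14 and 9.95 in WT and 9.76, 9.55 and 9.66 in ChLO. Its ChLO mice were close to each other, with an SD of 0.10, and below every WT mouse, and the difference was -0.56 (SE 0.20, adjusted p = 0.503).

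Cyp2s1, an enzyme of epithelia outside the liver, read 5.92, 6.07 and 6.45 in WT and 4.65 and 5.95 in ChLO 1 and 2, with ChLO 3 just below WT 2. Only ChLO 1 lay below every WT mouse in this gene. Cyp2a12, a steroid hydroxylase, read 13.94, 13.99 and 14.63 in WT and 13.37, 14.14 and 14.56 in ChLO, with overlap and a difference of -0.16 (SE 0.33). Cyp2g1, known from the olfactory mucosa, read 4.60, 5.74 and 6.99 in WT and 6.10, 7.29 and 7.88 in ChLO. Its groups overlapped at a dim level, and the difference of 1.31 (SE 0.70) did not pass (adjusted p = 0.614).

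**Figure D4:**
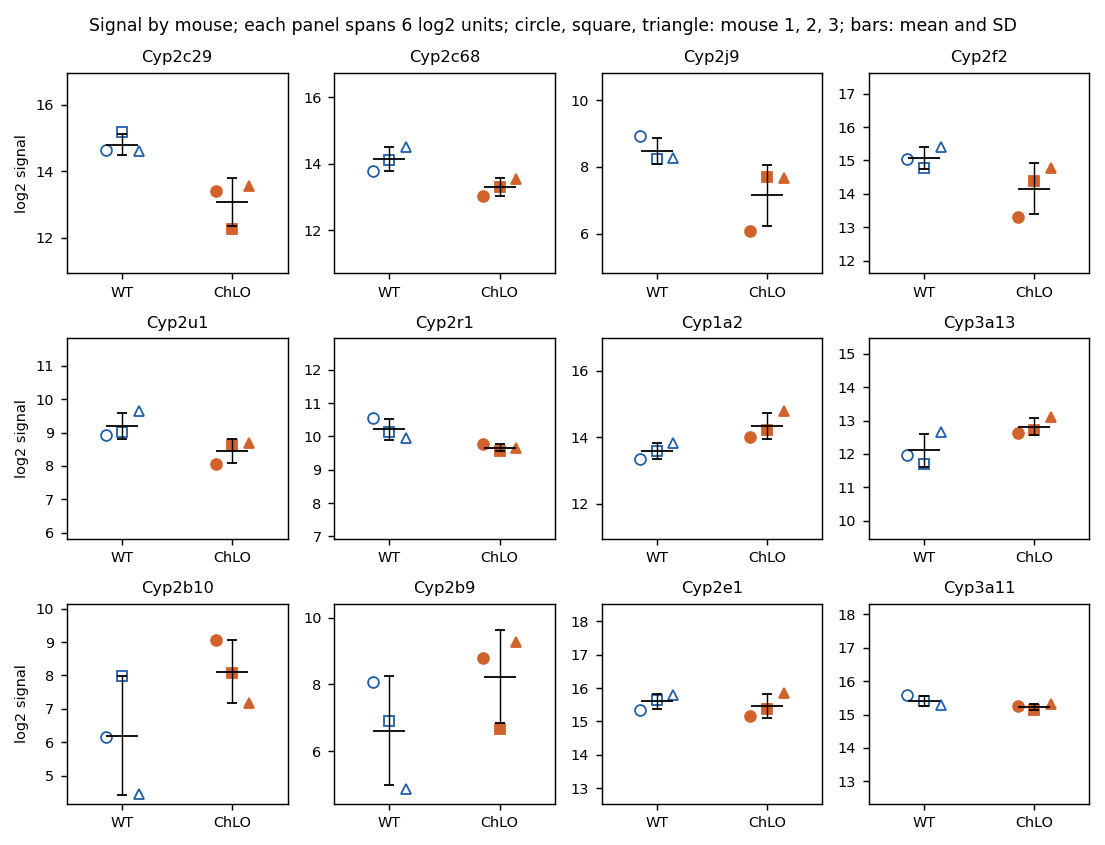
Log2 signal of each mouse (y axis) for 12 P450 genes by genotype (x axis), each panel spanning 6 log2 units; circle, square and triangle are mice 1, 2 and 3, and black bars give the mean and SD (n = 3). The groups are apart for Cyp2c29, Cyp2c68, Cyp2j9, Cyp2f2, Cyp2u1, Cyp2r1 and Cyp1a2, while Cyp2b10 spans 4.44 to 7.99 within WT.

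In family 1, Cyp1a2 was higher in every ChLO mouse and Cyp1a1 was not. Cyp1a2, which metabolizes caffeine and aromatic amines, read 13.34, 13.59 and 13.84 in WT and 14.00, 14.23 and 14.78 in ChLO. The lowest ChLO mouse was above the highest WT mouse. The difference was 0.75 (SE 0.24, 1.68-fold, limma adjusted p = 0.468), and it ran from 0.53 to 0.92 when each array was left out. Cyp1a1, a strongly AHR-inducible P450, read 7.15, 6.26 and 5.49 in WT and 6.55, 5.74 and 6.27 in ChLO. The ChLO mice lay inside the WT range. Of 9 listed AHR-inducible genes 4 were tested, 2 higher and 2 lower. Nqo1, a quinone reductase, read 7.96, 8.46 and 7.46 in WT and 9.33, 8.59 and 8.46 in ChLO, a difference of 0.84 (SE 0.34, adjusted p = 0.538), and Tiparp, a feedback inhibitor of AHR, differed by -0.06 (SE 0.27).

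The Cyp2b pair, which CAR induces, had large but very uneven positive differences. Cyp2b10 read 6.16, 7.99 and 4.44 in WT and 9.08, 8.07 and 7.19 in ChLO. ChLO 3 was below WT 2, so the groups overlapped, and the difference was 1.91 (SE 0.87, limma adjusted p = 0.571), from 1.03 without WT 3 to 2.81 without WT 2. Its 2 other probe sets past the limit differed by 1.46 and 1.07. Cyp2b9, a female-biased gene, read 8.07, 6.90 and 4.85 in WT and 8.78, 6.65 and 9.26 in ChLO. ChLO 2 lay below WT 1 and WT 2, and the difference was 1.62 (SE 0.91, adjusted p = 0.627), or 0.75 without WT 3. WT 3 was the lowest mouse for both genes. These values are dim, and closely related 2B sequences may share probes, as the suffix _s_at of the Cyp2b10 probe set marks.

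The 3A members differed in direction, and here too close copies may share probe signal. Cyp3a11, the main hepatic 3A enzyme of mice and a PXR target, read 15.57, 15.41 and 15.27 in WT and 15.26, 15.13 and 15.30 in ChLO. The groups overlapped in a narrow band near the top of the scale, where the brightest probe set of an array read 15.87 to 16.38, and the 95% interval of the difference ran from -0.59 to 0.22. Cyp3a25 read 14.89, 14.98 and 14.35 in WT and 13.41, 14.28 and 14.73 in ChLO, with ChLO 3 above WT 3 and a difference of -0.60 (SE 0.35). Cyp3a13 read 11.96, 11.70 and 12.67 in WT and 12.62, 12.72 and 13.11 in ChLO. ChLO 1 lay just below WT 3, and the difference was 0.71 (SE 0.27, limma adjusted p = 0.526).

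Cyp2e1, which oxidizes ethanol and acetaminophen, read 15.36, 15.65 and 15.79 in WT and 15.17, 15.36 and 15.86 in ChLO. The groups overlapped, and the difference of -0.14 (SE 0.24) had a 95% interval from -0.68 to 0.41. With quantile normalization the sign turned for Cyp2e1 (0.14) and Cyp3a11 (0.08). Of 8 listed pericentral P450 genes 7 were tested, 5 lower and 2 higher, with a median of -0.19. Of the 7, 2 had an unadjusted limma p under 0.05, Cyp2c29 (lower) and Cyp1a2 (higher). Over all genes 3.5% were lower and 5.46% higher with such a p. The other higher gene, Cyp2c54 at 0.28 (SE 1.05), turned to -1.01 without WT 1. The periportal list held 1 gene, Cyp2f2, which was lower, and a difference between the 2 zones was not tested. Of the male-biased P450 genes 4 of 5 were tested, with differences of -0.74 for Cyp2u1, -0.55 for Cyp2d9, -0.23 (SE 0.77) for Cyp7b1 and 0.10 (SE 0.74) for Cyp4a12a, and of 9 female-biased genes only Cyp2b9 was tested.

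Among 9 tested partners of the P450 system, 2 genes of the cytochrome b5 system had an unadjusted limma p under 0.05, both lower, where 3.5% of all genes were lower with such a p. Of 11 listed electron donors and membrane partners 9 were tested, 7 lower and 2 higher, with a median of -0.30, and Por, the P450 reductase, was not tested here. Cyb5r3, the reductase of cytochrome b5, read 13.93, 13.85 and 13.65 in WT and 13.24, 13.21 and 13.27 in ChLO. The ChLO mice lay within 0.06 of each other and below all WT mice, and the difference was -0.57 (SE 0.16, adjusted p = 0.438). Cyb5b, the mitochondrial cytochrome b5, differed by -0.69 (SE 0.21, adjusted p = 0.455) with no overlap, whereas Cyb5a, the form of the endoplasmic reticulum, differed by -0.09 (SE 0.20). Cyb5r4 and Cyb5r1 differed by 0.33 (SE 0.17) and 0.74 (SE 0.41). For heme, 6 of 11 genes were lower, the median was -0.18 and 0 had an unadjusted p under 0.05. Alas1, which catalyses the rate-limiting step of heme synthesis, differed by -0.47 (SE 0.29), Ppox by -0.44 (SE 0.20), Blvra by 0.30 (SE 0.21) and Hmox1, heme oxygenase, by 0.65 (SE 0.47).

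Of 30 listed sensors and regulators 28 were tested, 19 lower and 9 higher, with a median of -0.25. Of the 28, 3 (10.7%) had an unadjusted limma p under 0.05, near the 8.96% of all genes, and none was called. Ahr, the sensor that drives family 1, read 10.54, 10.50 and 10.55 in WT and 11.84, 11.68 and 10.78 in ChLO. It was above WT in all 3 ChLO mice, least in ChLO 3, and the difference was 0.90 (SE 0.27, adjusted p = 0.455). Nr0b2, the repressor SHP, differed by -0.91 (SE 0.22, adjusted p = 0.325) and Ppargc1a, a coactivator, by -0.80 (SE 0.31, adjusted p = 0.532). Hnf4a, a hepatocyte factor needed for many P450 genes, differed by -0.36 (SE 0.18), Nr1i2, which encodes PXR, by -0.35 (SE 0.21) and Nr1i3, which encodes CAR, by 0.13 (SE 0.49). For Nr1i3, ChLO 1 at 9.13 was below every WT mouse, while ChLO 2 at 10.66 and ChLO 3 at 11.27 were above the highest, which read 10.52.

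Targets of CAR and PXR, 19 of 24 listed being tested, split into 7 lower and 12 higher with a median of 0.30, and 5 had an unadjusted limma p under 0.05, 2 lower (3.5% of all genes) and 3 higher (5.46% of all genes). Abcc3, an export pump, differed by 1.32 (SE 0.25, adjusted p = 0.221) and Ces2a, a carboxylesterase, by -1.27 (SE 0.39, adjusted p = 0.455), and the other three were Cyp2c29, Cyp3a13 and Abcc4. Over all genes 43.5% were lower. Sult1e1, among the 12 higher, passed the signal limit of 5.5 through its ChLO mean of 7.21, with a WT mean of 5.43. The part of CAR and PXR in these differences was not tested. Of 17 tested P450 genes of other families 11 were lower, with a median of -0.23, and 1 (5.88%) had an unadjusted p under 0.05, a smaller share than the 8.96% of all genes. It was Cyp17a1, a steroid hydroxylase, whose WT mice read 11.37, 11.33 and 8.83 and whose ChLO mice read 7.63, 6.46 and 8.99, a difference of -2.81 (SE 0.81, adjusted p = 0.449). Cyp26a1, which degrades retinoic acid, differed by -2.50 (SE 1.24), Cyp4f13 by -0.61 (SE 0.31) and Cyp4a14, a PPAR alpha target, by 1.73 (SE 1.05). Cyp26a1 passed the signal limit of 5.5 through its WT mean of 6.95, with a ChLO mean of 4.45. It read 3.31, 7.48 and 2.57 in ChLO 1, 2 and 3, and ChLO 2 lay within the WT range of 5.91 to 7.63.

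**Figure D5:**
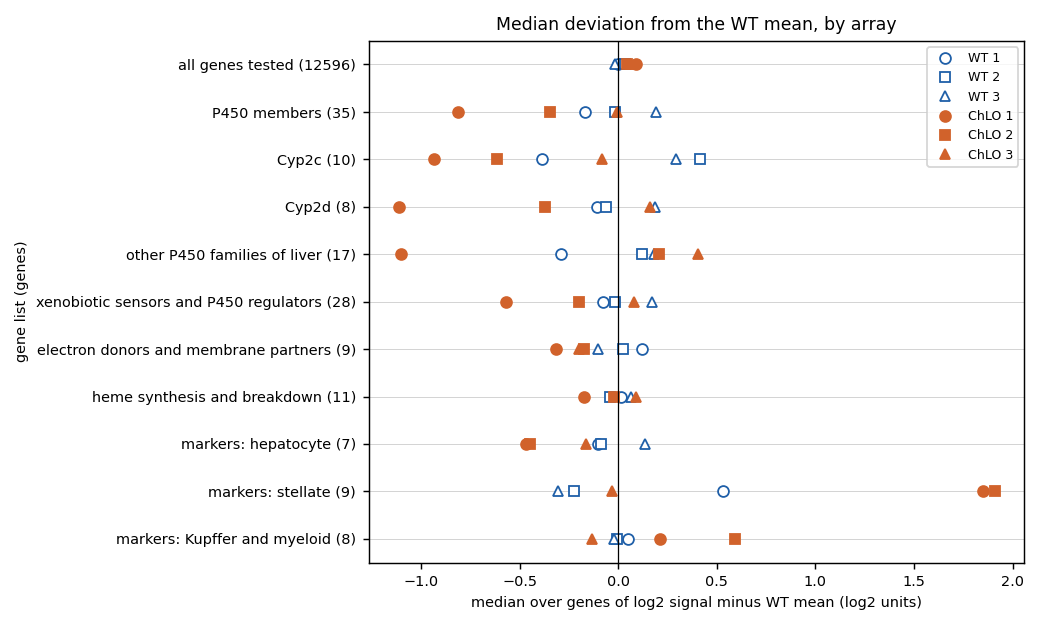
Median over genes of the log2 signal minus the WT mean (x axis, log2 units) for each gene list (y axis, number of genes in brackets), open blue for WT and filled orange for ChLO mice. For the P450 members ChLO 1 and ChLO 2 stand at -0.81 and -0.35, and stellate cell markers stand at 1.85 and 1.91 in the same arrays.

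The livers with the lowest P450 medians, ChLO 1 and ChLO 2, also had the highest summed signals of stellate and myeloid markers. Both sums were larger for ChLO 2, whereas the P450 median was lowest for ChLO 1. Not every list or marker followed this pattern. The endothelial sum of ChLO 1, 6676, fell inside the WT range. The Kupffer cell markers Clec4f (9.95) and Vsig4 (10.97) were below every WT array for ChLO 1, but above every WT array for ChLO 2 (11.03 and 11.80). All 7 tested hepatocyte markers, such as Alb at 15.31 to 15.85 over the 6 arrays, were lower in ChLO, and their median deviation was -0.47, -0.45 and -0.16 in ChLO 1, 2 and 3. Their summed linear signal was 203631 to 256358 in ChLO and 262032 to 301675 in WT. All 9 stellate cell markers read higher, and their sums were 6905 to 11256 in WT while ChLO 1, 2 and 3 had 22734, 26713 and 8080. For Kupffer and myeloid cells 6 of 8 were higher, with sums of 14903 to 15965 in WT and of 21141, 23264 and 13781 in the respective ChLO mice, and for bile duct 4 of 5 were higher (sums of 353 to 1529 in ChLO against 216 to 373 in WT). For endothelium 4 of 6 were higher (6676 to 9117 in ChLO, 6619 to 7828 in WT), and for lymphocytes 2 of 3 (220 to 373 in ChLO, 263 to 351 in WT). The bile duct markers Cldn4 and Krt19 and the lymphocyte marker Cd3d had WT means of 5.38, 5.499 and 5.48, under the limit of 5.5. They passed it through their ChLO means of 8.12, 6.12 and 5.56, so the counts of higher markers in these lists lean on that. Of 11 acute phase and interleukin-6 genes 8 were higher, with a median deviation of 0.49, 1.37 and -0.05 in ChLO 1, 2 and 3. Lcn2, Socs3 and Saa1 differed by 2.61 (SE 0.83), 1.55 (SE 0.56) and 0.91 (SE 0.47), and Orm1 by -0.58 (SE 0.16). The part of other cell types and of the acute phase in the P450 differences was not tested.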

How the data were processed

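The authors deposited log2 signals of 45101 probe sets on 6 Affymetrix arrays. The submitters' processing notes name MAS5; its version and parameters and the genome build are not given in the sources used here. Each array's linear signals had a mean of 500 after trimming 2% from each end, so the values carry global scaling without quantile normalization. Gene names came from the array platform's annotation table, in which 34945 probe sets had 1 symbol, 932 several and 9160 none. After leaving out 64 control probe sets and those with a mean under 5.5 (a linear signal of 45.3), the brightest probe set of each gene was kept. Of 52 probe sets of the family 42 passed, and 2 with several symbols were left out. All 12596 genes were fitted with limma 3.58.1 in R 4.3.3 (eBayes with a mean-variance trend, no block), adjusted by Benjamini-Hochberg at 0.05, and the fit was tested on simulated data. Differences are ChLO minus WT with moderated SE and 95% intervals. When an array was left out, the filter and the probe sets stayed as chosen on 6 arrays. The number of arrays limits the precision. The members and lists were chosen with earlier results of these data known. Per-array values were given for the 10 brightest members and the 8 largest differences each way. They were also given for members with an unadjusted p under 0.05 and a fixed set. From each list other than the cell type markers, the 4 genes with the smallest p and a few fixed ones were named. Many of these were given by their difference alone. Cyp2c50, Cyp2c37, Cyp2c38, Cyp2c39, Cyp2c23 and Cyp2d22 were added to the text after their values were seen. Alternatives were other normalizations, filters, variance models, array weights, probe set choices, a replicate block, leaving out each array and, chosen after seeing the data, scaling to spike-in controls.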

Additional observations from a re-analysis of the deposited data

How the results depend on the processing

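The 26 to 9 split between lower and higher members kept its direction under every alternative run, and where all 35 members were tested it ran from 20 lower of 35 with spike-in scaling (chosen after seeing the data) to 28 of 35 without ChLO 3, and the median difference of -0.35 ranged from -0.56 to -0.17 when single arrays were left out and was -0.10 with spike-in scaling. With no filter on low signals 30 of 43 were lower. Over all genes limma called 0 in the reported fit, 302 without ChLO 3, 4 without ChLO 1, 3 with no filter, 568 with array weights and 1 with the replicate block. Array weights, for which limma reported incomplete convergence, called 2 members (both among those with values in the text), 1 of the pericentral and periportal list and 8 genes of the partner, regulator, inducible and heme lists, and gave 13 members an unadjusted p under 0.05; calling at an unadjusted p would give 8 members. Leaving out single arrays gave 0 to 1 members called and 0 to 1 of the pericentral and periportal list. It gave 0 to 7 genes of the partner, regulator, inducible and heme lists (7 without ChLO 3, with 2.4% of all genes called). Members with an unadjusted p under 0.05 numbered 4 to 15. Cyp2c29 was called both without ChLO 3 and with array weights (4.51% of all genes called). It is a member and stands in the pericentral list and the inducible CAR and PXR list, so each of these counts includes it. The share of all genes with an unadjusted p under 0.05 was worked out only for the reported fit (8.96%) and without ChLO 3 (20.4%). The Cyp3a median was 0.084 with quantile normalization, 0.063 with spike-in scaling and -0.60 with no filter on low signals. The sign turned with spike-in scaling for Cyp1a1 (0.14), Cyp2a12 (0.087), Cyp2c70 (0.12), Cyp2d26 (0.043), Cyp2e1 (0.11) and Cyp3a11 (0.063), and with quantile normalization for Cyp2e1 (0.14) and Cyp3a11 (0.084). It also turned on leaving out single arrays, with ranges of -0.51 to 0.32 for Cyp1a1, -0.43 to 0.16 for Cyp2a12, -0.37 to 0.70 for Cyp2c23, -0.78 to 0.10 for Cyp2c37, -1.03 to 0.076 for Cyp2c50, -1.01 to 0.98 for Cyp2c54, -0.71 to 0.11 for Cyp2c55, -0.34 to 0.12 for Cyp2c70, -0.43 to 0.012 for Cyp2d26 and -0.33 to 0.012 for Cyp2e1. The cause was not tested.

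With the replicate number as a block, 0 members were called, 26 were lower, the median stayed at -0.35, and 12 members had an unadjusted p under 0.05. The share of all genes with such a p was not worked out for this fit, so the 12 have no background. No label says that the shared numbers pair the mice, and the deviations of same-numbered arrays from their group means correlated at 0.30, -0.17 and 0.06.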
